A study of Mus musculus with 15 samples.

Results

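The 6 libraries described here came from brains of mice given MPTP and then an inhibitor of BTK, Bruton tyrosine kinase, and they are 6 of 15 libraries in the series. They fell into 3 with a Slc6a3 read count of 1000 or more (high-dose libraries 2 and 3 and low-dose library 2, called Slc6a3-rich) and 3 with a count under 100 (high-dose library 1 and low-dose libraries 1 and 3, called Slc6a3-poor). Slc6a3 encodes the dopamine transporter. The libraries were selected on the measured Slc6a3 counts of these same samples, so every difference between rich and poor libraries is given as a description, with no test. The rich libraries had 1216, 4637 and 2900 Slc6a3 reads (high-dose 2, high-dose 3, low-dose 2) and the poor ones 55, 36 and 77 (high-dose 1, low-dose 1, low-dose 3). The values nearest the limits were thus 1216 on the inside and 77 on the outside, and the same order of libraries is kept for all values below.

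The study gave MPTP, a toxin taken up by dopamine neurons, at 20 mg/kg/day for 1 week to all groups except the controls, which were on a normal diet. MPTP was followed by no drug, by levodopa at 2 mg/kg/day, or by the inhibitor at a low dose (1 µg/kg/day, also labelled 25 pM) or a high dose (2 µg/kg/day, also labelled 50 pM), for 4 weeks. Each of the 5 groups had 3 libraries, while the protocol names 8 mice per group, and the labels give both an oral and an intraperitoneal route for levodopa. The brain region, genotype, strain and age are not labelled beyond a time of 6 weeks. Nothing in the labels ties a library to a mouse of its own, so the p-values cover the spread among these samples alone, and part of that spread may be technical.

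Midbrain dopamine neurons sit mainly in the substantia nigra and the ventral tegmental area. They make dopamine from tyrosine by tyrosine hydroxylase (Th) and aromatic amino acid decarboxylase (Ddc), load it into vesicles with the vesicular monoamine transporter (Slc18a2) and take it back up with the dopamine transporter (Slc6a3). Th, Ddc and Slc18a2 are shared with other monoamine neurons, whereas Slc6a3 is largely restricted to dopamine neurons, whose cell bodies, where most of this mRNA lies, occupy a small part of the brain. Their identity depends on transcription factors including Nurr1 (Nr4a2), which the title of the series names, and Pitx3, En1, En2, Foxa1, Foxa2, Lmx1a and Lmx1b.

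The start regions of the 3 marker genes Th, Slc6a3 and Slc18a2 are shown because their transcripts were high or low in the same inhibitor libraries. The windows of 300 bases come from RefSeq (GRCm38.p6), from 250 bases before to 50 after a transcript start, 5′ to 3′ on the gene's strand, and capitals mark TGACGTCA, the cyclic AMP response element. They are chr7:142899946-142900245 on the minus strand for Th, chr13:73536497-73536796 on the plus strand for Slc6a3 and chr19:59260628-59260927 on the plus strand for Slc18a2.
Th: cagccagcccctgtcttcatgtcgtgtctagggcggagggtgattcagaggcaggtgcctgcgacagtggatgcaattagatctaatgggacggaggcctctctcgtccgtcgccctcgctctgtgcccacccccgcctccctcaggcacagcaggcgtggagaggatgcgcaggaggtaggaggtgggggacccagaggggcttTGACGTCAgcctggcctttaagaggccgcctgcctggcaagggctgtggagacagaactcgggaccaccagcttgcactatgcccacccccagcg
Slc6a3: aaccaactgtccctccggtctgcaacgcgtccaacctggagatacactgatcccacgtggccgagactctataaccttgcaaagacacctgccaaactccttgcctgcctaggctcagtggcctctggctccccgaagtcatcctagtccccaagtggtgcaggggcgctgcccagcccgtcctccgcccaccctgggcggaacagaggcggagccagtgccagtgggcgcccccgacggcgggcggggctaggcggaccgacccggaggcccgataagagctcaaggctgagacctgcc
Slc18a2: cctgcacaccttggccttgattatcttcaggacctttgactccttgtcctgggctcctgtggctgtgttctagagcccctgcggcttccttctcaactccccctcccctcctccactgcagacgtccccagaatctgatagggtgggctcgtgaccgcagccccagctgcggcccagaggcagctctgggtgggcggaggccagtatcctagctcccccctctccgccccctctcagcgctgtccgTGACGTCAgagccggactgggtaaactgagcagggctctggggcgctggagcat
TGACGTCA reads the same on both strands, occurred 1 time in the Th and 1 time in the Slc18a2 window, and was in 0 positions of the Slc6a3 window. It was looked for after the letters had been seen, and 588 of 32851 promoters in the table (1.79%) hold it. The element bound by Nurr1 as a monomer, AAAGGTCA, searched on both strands, was in none of the 3 windows and in 1.51% of all promoters, and TATAAA was in none of the 3 and in 13.6% of all. These matches describe the letters of these windows only, and the annotated Slc6a3 gene starts before its window, at 73536128 on chromosome 13.

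Depth was alike in the rich and poor libraries, with 58149722 to 61998459 reads in the rich and 58934299 to 60742413 in the poor ones. The 9 libraries without inhibitor had 63314658 to 68257095 reads. The share of mitochondrial ribosomal RNAs was 0.937% to 1.48% in the rich, 1.15% to 1.46% in the poor and 0.244% to 0.88% in the other 9 libraries. Levels are CPM, read counts divided by library size and scaled by TMM factors. Before that scaling, 3 reads correspond to at most 0.0516 CPM. Control 2 and levodopa 2 stood apart with summed cerebellar markers of 6033 and 4983 CPM, against 70.3 to 258 CPM in the other 13 libraries. Results that rest on those 2 libraries are given with and without them.

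Slc6a3 (chromosome 13, 73536128 to 73578672) had 20.3, 78.1 and 47.1 CPM in the rich and 0.896, 0.607 and 1.35 CPM in the poor libraries. The ratio of the means was 51.0, and the high-dose and the low-dose group each held libraries of both kinds. In the other groups Slc6a3 had 5.11, 0 and 55.3 CPM in controls 1 to 3, 78.4, 121 and 54.5 CPM after MPTP, and 73.8, 0.129 and 75.5 CPM after MPTP and levodopa. The 3 MPTP libraries were all high, and the lowest levels were those of control 2 and levodopa 2, the libraries with cerebellar markers. Group means were 84.5 ± 33.5 CPM after MPTP, 49.8 ± 43.0 with levodopa, 33.1 ± 40.1 with the high dose, 20.1 ± 30.6 in controls and 16.3 ± 26.6 with the low dose (SD, n = 3 each). Neighbours in this order overlapped in every case.

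**Figure D1:**
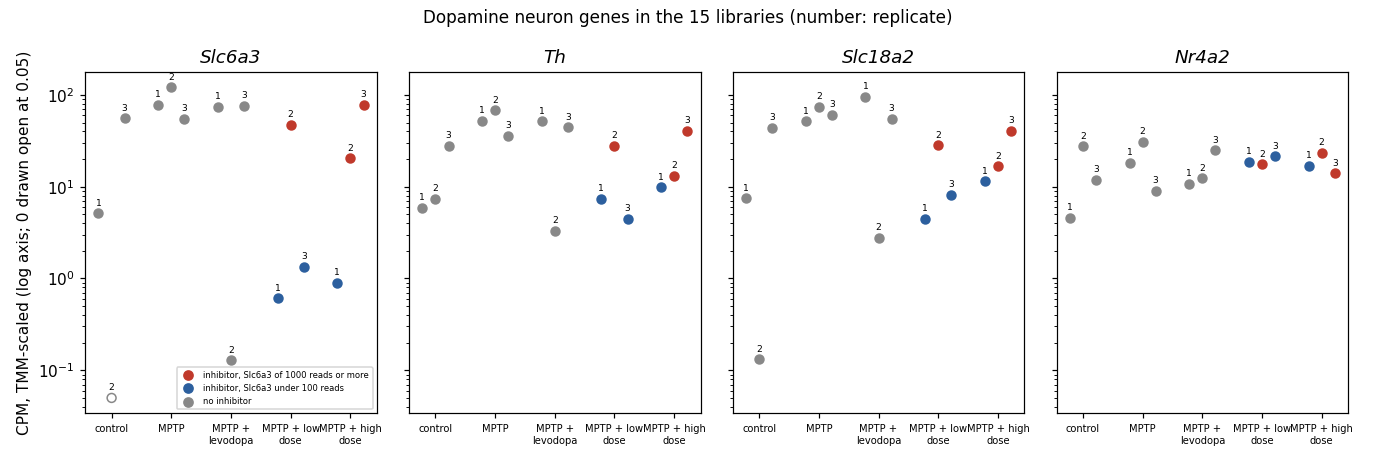
CPM (log axis) of Slc6a3, Th, Slc18a2 and Nr4a2 in each library by group, with red points for the Slc6a3-rich and blue for the Slc6a3-poor inhibitor libraries, grey for libraries without inhibitor, and small numbers for replicates. The red and blue points are apart for Slc6a3, Th and Slc18a2 and mixed for Nr4a2.

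Genes of dopamine synthesis, packaging and uptake were all higher in the rich libraries. Th (chromosome 7, 142892779 to 142899995) had 13.0, 40.7 and 27.7 CPM in the rich and 9.88, 7.41 and 4.45 CPM in the poor libraries. The lowest rich library, high-dose 2, lay close to the highest poor library, high-dose 1, and the ratio of means was 3.75. Slc18a2 (chromosome 19, 59260878 to 59296012) had 16.7, 40.7 and 28.2 CPM against 11.5, 4.49 and 8.13 CPM, a ratio of 3.55. Ddc had 23.9, 47.0 and 34.5 CPM against 20.3, 10.9 and 13.2 CPM, a ratio of 2.38, again with high-dose 1 the highest of the poor libraries. Gch1, the enzyme that starts synthesis of the tetrahydrobiopterin cofactor of tyrosine hydroxylase, had 1.70, 3.92 and 2.89 CPM against 1.60, 1.21 and 1.38 CPM. All 5 genes of this list kept the order high-dose 3, low-dose 2, high-dose 2 within the rich libraries. The brain samples are bulk tissue, so fewer cells of a type and less RNA per cell cannot be told apart.

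The poor libraries differed more from the rich ones in Slc6a3, the gene that selected them, than in the other genes of this list. The ratios to Th below are a description, since their numerator chose the libraries. There were 1.56, 1.92 and 1.70 Slc6a3 reads per Th read in the rich libraries and 0.0908, 0.0820 and 0.303 in the poor ones. The MPTP libraries had 1.49, 1.78 and 1.51, within or near the rich range. Control 3 had 1.98 and levodopa 1 and 3 had 1.43 and 1.70, while control 1 had 0.871, levodopa 2 had 0.0392 and control 2 had 0. By contrast, Slc18a2 reads per Th read were 1.28, 0.999 and 1.02 in the rich and 1.16, 0.606 and 1.83 in the poor libraries, which overlapped. A ratio of reads does not correct for gene length, so it is compared between libraries and not between genes.

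**Figure D2:**
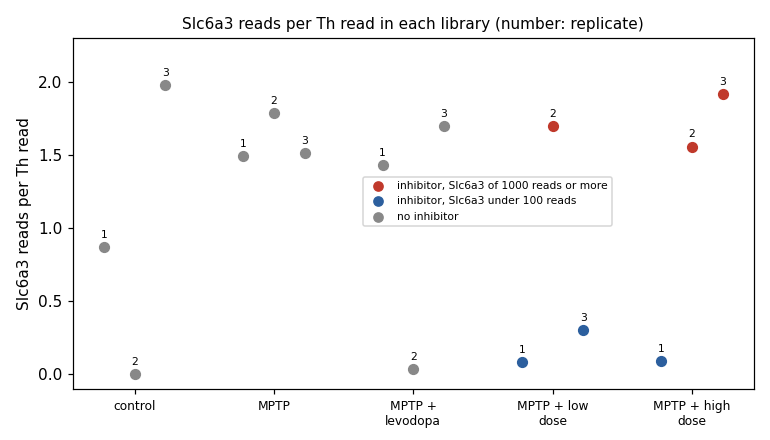
Slc6a3 reads per Th read in each library (linear axis) by group, coloured as in the plot of CPM by group, with replicate numbers. The rich libraries lie at 1.56 to 1.92 and the poor ones at 0.0820 to 0.303, and they were chosen by their Slc6a3 reads.

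Among the transcription factors of dopamine neurons with a mean of at least 1 CPM over the 6 libraries, En1 and En2 stood apart and Nr4a2 did not. En1, engrailed 1 (chromosome 1, 120602487 to 120607991), had 0.768, 4.34 and 2.53 CPM in the rich libraries (46, 258 and 156 reads) and 0.0652, 0 and 0.158 CPM in the poor ones (4, 0 and 9 reads). Nr4a2 (chromosome 2, 57106830 to 57124003) had 23.5, 14.0 and 17.6 CPM against 17.0, 18.6 and 21.3 CPM. The 2 sets of Nr4a2 values overlapped with a ratio of 0.967, and the library highest in Slc6a3, high-dose 3, was the lowest in Nr4a2. En2, which is also expressed in the cerebellum, had 2.24, 2.76 and 2.52 CPM against 1.29, 1.11 and 1.31 CPM. En1 had 4.68 CPM in levodopa 2, a library with cerebellar markers and 0.129 CPM of Slc6a3.

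Several of these factors were measured at very low levels. Pitx3, a factor of nigral dopamine neurons, had 16, 51 and 27 reads in the rich and 0, 0 and 8 reads in the poor libraries. Foxa2 had 23, 57 and 25 reads against 0, 0 and 0. By 3 reads, 0 allows up to 0.0494, 0.0509 and 0.0509 CPM before TMM scaling (counting error only). Foxa1 had 53, 158 and 76 reads against 25, 2 and 13. Neither Pitx3, Foxa1, Foxa2, Lmx1a nor Lmx1b reached a mean of 1 CPM over the 6 libraries. At these low levels Pitx3, Foxa1, Foxa2 and Lmx1b were also higher in every rich than in every poor library. Lmx1b had 1.24, 1.92 and 1.28 CPM against 0.799, 0.202 and 0.158 CPM, and Lmx1a, with 1.25, 1.33 and 0.958 CPM against 0.945, 0.304 and 1.02 CPM, overlapped. Otx2 and Sox6, both also expressed outside dopamine neurons, overlapped with ratios of 1.13 and 1.06.

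Receptors, channels and surface genes divided. Chrna6, the nicotinic receptor subunit typical of dopamine neurons (chromosome 8, 27403212 to 27413944), had 3.92, 10.8 and 7.45 CPM against 0.326, 0.169 and 0.578 CPM, a ratio of 20.7. Its neighbour Chrnb3, the partner subunit (27368711 to 27399730), had 3.64, 8.50 and 3.96 CPM against 1.03, 1.52 and 3.89 CPM, and overlapped through low-dose 3. Gucy2c, a guanylyl cyclase receptor found in dopamine neurons, had 0.968, 2.95 and 1.64 CPM against 0.733, 0.186 and 0.841 CPM, and the vesicular protein gene Slc10a4 12.9, 19.4 and 17.6 CPM against 7.58, 11.3 and 8.04 CPM. Ret, the receptor of GDNF family factors (chromosome 6, 118151748 to 118197744), had 18.0, 49.4 and 30.0 CPM against 28.6, 10.8 and 13.4 CPM. High-dose 1, poor in Slc6a3, thus had more Ret than high-dose 2, which was rich in it. Drd2, a receptor shared with striatal neurons, had 20.3, 59.4 and 51.6 CPM against 20.4, 48.8 and 53.0 CPM and did not follow the split. Kcnj6, the GIRK2 channel subunit, was the reverse, with 73.0, 56.6 and 79.1 CPM in the rich and 87.4, 91.6 and 84.7 CPM in the poor libraries.

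Of the other dopamine neuron genes only Aldh1a1 did not overlap. Aldh1a1, the aldehyde dehydrogenase of ventral nigral dopamine neurons, had 104, 140 and 111 CPM in the rich and 91.7, 37.3 and 50.9 CPM in the poor libraries. Its level was not tied to Slc6a3 throughout the series. Control 2 and levodopa 2, with 0 and 0.129 CPM of Slc6a3, had 213 and 252 CPM of Aldh1a1. Cck, Vip, Calb1, Calb2, Sncg and Dlk1 overlapped. These are also expressed by neurons outside the midbrain.

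Over the 4 dopamine lists together, 28 of 33 genes reached a mean of 1 CPM over the 6 libraries. Of these, 11 were higher in every rich than in every poor library, 1 (Kcnj6) was lower and 16 overlapped. Slc6a3, which the rule separates, is 1 of the 11, and without it 10 of 27 were higher. Over all 15714 genes at that level, 6.17% were higher in every rich library and 6.43% in every poor library. The median log2 ratio was 0.70 for the 28 genes, 0.65 without Slc6a3 and -0.0049 for all genes. Within the rich libraries 18 of the 28 (64.3%) followed the order of Slc6a3, with high-dose 3 highest and high-dose 2 lowest, as did 18.3% of all genes. Without Slc6a3 itself 17 of 27 (63.0%) did so. The Slc6a3 level chose the libraries, so these shares are printed beside one another as descriptions.

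A ratio of at least 2 with no overlap was met by 27 genes (0.172%) in favour of the rich libraries and by 25 (0.159%) in favour of the poor ones. Of the 27, 9 were in the dopamine lists: Slc6a3, En1, Chrna6, Th, Slc18a2, Gucy2c, Ddc, Gch1 and En2. Without Slc6a3, which chose the libraries, they were 8 of 26. Leaving out high-dose 1 gave 105 and 120 genes, 15 of them in the dopamine lists on the rich side, and leaving out high-dose 3 gave 39 and 44, with 4 in the dopamine lists. Without high-dose 2 the counts were 44 and 72, although with fewer libraries fewer values have to be separate. With a minimum mean of 5 CPM they were 7 and 5, and 4 of the 7 were dopamine genes.

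The other 18 genes of the rich side included transcription factors of neighbouring midbrain and brainstem neurons. Gata3 and Tal1, which specify inhibitory midbrain and brainstem neurons (Gata3 also marks serotonin neurons), had 1.64, 3.20 and 1.82 CPM against 0.196, 0.101 and 0.140 CPM, and 2.75, 4.19 and 4.42 CPM against 1.27, 1.35 and 0.999 CPM. Tfap2d and Tfap2b, neighbours on chromosome 1 (19103022 to 19173948 and 19208908 to 19238845), had ratios of 6.64 and 4.18, and Irx3 and Mab21l1 had 2.99 and 2.78. Not every gene of this neighbourhood followed the split, as Cartpt and Pou4f1, of a list of ventral midbrain peptide and red nucleus genes, overlapped. C130021I20Rik, which overlaps the end of Lmx1b on chromosome 2, had a ratio of 5.91. Since the strand setting of the counting is not given in the sources used here, its reads and those of Lmx1b cannot be told apart. The rest included C1ql4, Klk6, Lncenc1, Myoc, Calca, Spp1, Prph, Ifitm1, Car13 and Mfrp, with Klk6, a protease of oligodendrocytes, at 10.2, 17.9 and 15 CPM against 7.84, 4.32 and 4.68 CPM.

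The largest ratio among genes with a mean of at least 1 CPM belonged to Mfrp, a gene known from the retinal pigment epithelium (chromosome 9, 44101770 to 44109187). It had 489, 438 and 594 reads in the rich and 0, 0 and 26 reads in the poor libraries, or 8.16, 7.37 and 9.64 CPM against 0, 0 and 0.455 CPM. Its annotated range overlaps C1qtnf5, so the assignment of these reads is uncertain. In the 9 libraries without inhibitor it ranged from 0 to 6.68 CPM.

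**Figure D3:**
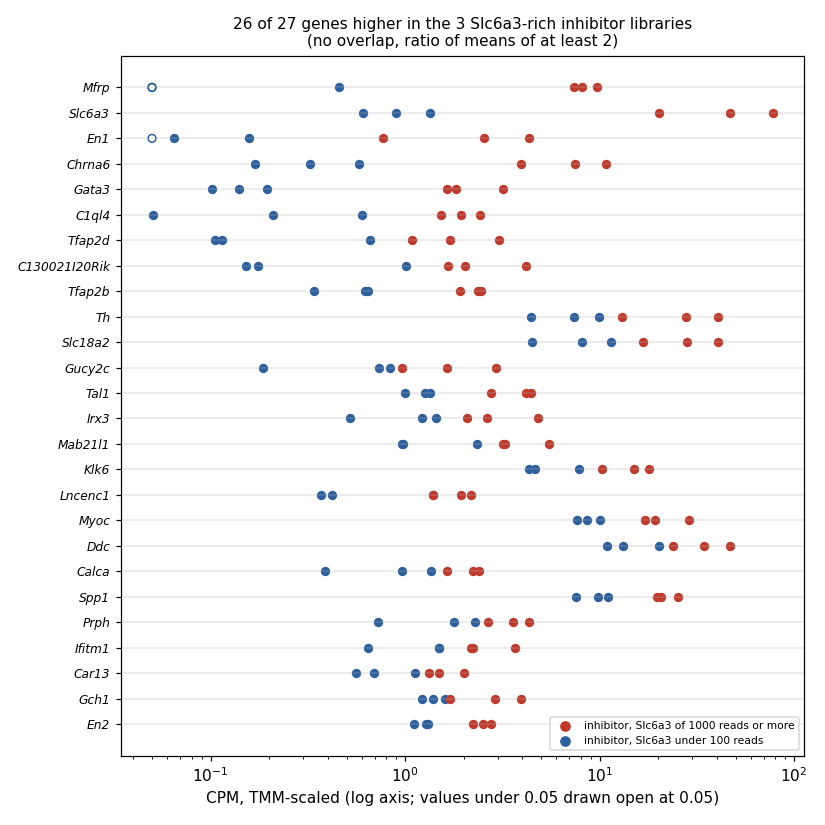
CPM (log axis, values under 0.05 drawn open at 0.05) of 26 of the 27 genes that were at least 2-fold higher in the Slc6a3-rich inhibitor libraries (red, 3 libraries) than in the Slc6a3-poor ones (blue, 3 libraries) with no overlap, ordered by ratio. Mfrp has the largest ratio of means, 55.3, and En2 the smallest, 2.02.

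Of the 25 genes higher in the poor libraries none was in a dopamine list, and many were predicted genes. Eomes, a factor of olfactory bulb projection neurons and of immature cortical neurons, had 3.05, 2.90 and 0.893 CPM in the rich and 7.48, 5.03 and 3.08 CPM in the poor libraries. LOC108168731 had 0, 0 and 1.56 CPM against 1.96, 5.25 and 8.57 CPM, a ratio of rich over poor of 0.0988, and its range overlaps Napb, so its reads are uncertain. The gene with the smallest ratio of the 25 is not reported here. Erdr1, Efcab3, Serinc2, Arhgap25, C7 and Ccm2l, the last a gene of endothelial cells, had ratios of rich over poor from 0.354 (Erdr1) to 0.494 (Ccm2l).

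Markers of other cell types moved with the split as well. For oligodendrocytes, the myelin-forming cells, the summed level of 9 markers was 14536 to 18349 CPM in the rich and 10875 to 13764 CPM in the poor libraries, and 5 of 9, Mbp, Mog, Cnp and Cldn11 among them, did not overlap. For endothelium, the cells lining vessels, 7 markers summed to 104 to 136 CPM in the rich and 144 to 179 CPM in the poor libraries. All but Slc2a1 were higher in every poor library, for example Cldn5, a tight junction gene, with 10.3, 11.8 and 11.9 CPM against 15.1, 27.9 and 22.1 CPM. Astrocyte (2 of 7 higher in the rich libraries) and microglial (1 of 8) markers mostly overlapped, at 3104 to 3742 against 3303 to 3483 CPM and 288 to 311 against 270 to 304 CPM. Over all genes 6.17% were higher in every rich library and 6.43% in every poor library. The part of these cell types in the dopamine gene values was not tested.

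Some lists of other brain regions overlapped between rich and poor libraries, and others did so in part. Each of the 10 striatal, 12 cortical and hippocampal, 8 thalamic, 5 cerebellar and 11 hypothalamic genes at 1 CPM or more overlapped. So did the 2 ventral midbrain peptide and red nucleus genes at that level, Cartpt and Pou4f1. Their list summed to 17.0 to 22.2 CPM in the rich and 13.3 to 20.0 CPM in the poor libraries. Pou4f1 had 2.74, 7.89 and 0.617 CPM against 0.0652, 0.962 and 7.74 CPM. For serotonin neurons 1 of 4 (Gata3, named above) and for brainstem inhibitory neurons 1 of 3 genes were higher in every rich library. The same held for 1 of 2 subthalamic and mammillary and 1 of 8 choroid plexus genes, against 6.17% of all genes. Of 4 olfactory bulb genes 1 was higher in every poor library, against 6.43% of all genes. Summed striatal markers ran from 898 to 1476 CPM in the rich and from 565 to 1762 CPM in the poor libraries, where high-dose 1 was the lowest and low-dose 1 the highest. Serotonin neuron markers summed to 28.2 to 32.7 CPM against 16.1 to 27.2 CPM, with Tph2, the serotonin-making hydroxylase, at 1.60, 4.81 and 3.23 CPM against 0.766, 0.456 and 1.94 CPM. Most of that sum was the receptor gene Htr1a, at 23.0, 19.3 and 21.1 CPM against 24.4, 18.3 and 12.8 CPM. Htr1a and Tph2 each overlapped. Slc6a4, the serotonin transporter, had 0 CPM in high-dose 2 and 2.04 and 2.03 CPM in the other rich libraries. Cholinergic markers summed to 40.1 to 53.3 CPM against 31.5 to 39.8 CPM, and only Slc5a7, the choline transporter, of 4 did not overlap. Markers of noradrenaline neurons, which also use Th, Ddc and Slc18a2, summed to at most 0.438 CPM in any of the 6 libraries, and none of 13 hindbrain Hox genes passed the filter on low counts.

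**Figure D4:**
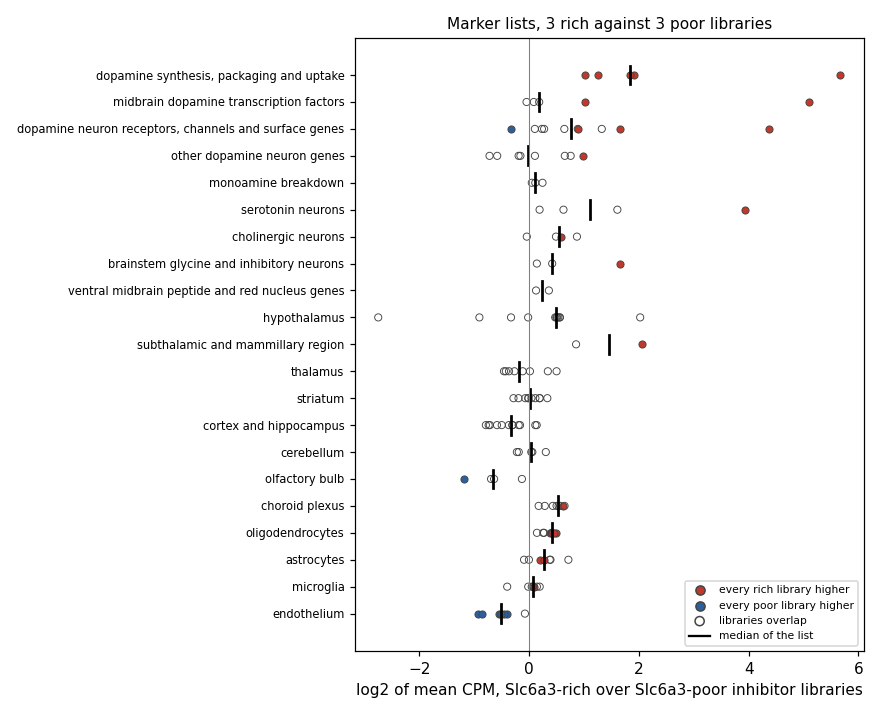
Log2 ratio of mean CPM, Slc6a3-rich over Slc6a3-poor inhibitor libraries (3 each), for each gene of at least 1 CPM in the marker lists, with a black bar at each list's median. Red points are genes higher in every rich library, blue points genes higher in every poor library and open points genes that overlap; the first list has a median of 1.83 and endothelium one of -0.52.

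The question whether dopamine genes differ by dose was put to the labelled groups, since 2 of 3 high-dose and 1 of 3 low-dose libraries were rich. High against low dose gave a log2 fold change of 1.02 (SE 2.02) for Slc6a3, 0.68 (SE 0.94) for Th and -0.08 (SE 0.56) for Nr4a2, with an edgeR adjusted p of 1 for each. With edgeR's quasi-likelihood test 0 of 21821 genes passed an adjusted p of 0.05 (0%), while 486 were under 0.05 before adjustment and 1 was called by DESeq2. That gene, named because it was the only one, was Pisd-ps1, a pseudogene, with 45.6, 43.6 and 51.1 CPM in high-dose 1 to 3 and 72.4, 89.3 and 83.4 CPM in low-dose 1 to 3 (log2 fold change -0.81, DESeq2 adjusted p = 0.00262, edgeR adjusted p = 0.826). Its reads may be shared with near-identical copies. Without high-dose 3 the log2 fold changes of Slc6a3 and Th turned to -0.64 and -0.21, and without low-dose 2 they were 5.10 and 1.85, so 1 library of either group decided their direction or size.

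The comparisons with MPTP alone asked whether dopamine genes differed from mice given the toxin only, and they share the MPTP libraries. All 6 inhibitor libraries lay below the 9 others in depth and above them in the share of mitochondrial ribosomal RNAs. Differences in how the libraries were made therefore cannot be told apart from the inhibitor in these comparisons. After the high dose 236 genes rose (1.08% of 21821) and 193 fell (0.884%), of which 0 were in the dopamine lists, where 33 genes were tested. After the low dose 1042 genes rose (4.78%) and 819 fell (3.75%), of which 2 and 2 were in the dopamine lists. Ret had 10.8, 30.0 and 13.4 CPM in low-dose 1 to 3 and 81.4, 102 and 66.3 CPM after MPTP alone. The 3 low-dose libraries lay below all MPTP libraries and Ret fell (log2 fold change -2.20, SE 0.46, edgeR adjusted p = 0.0151). Aldh1a1, at 66.3 ± 39.0 against 209 ± 59.0 CPM (SD, n = 3 each), also fell (log2 -1.66, SE 0.43, edgeR adjusted p = 0.0338). Aldh1a1 was high in control 2 and levodopa 2 as well (213 and 252 CPM), where Slc6a3 was near 0, so it is not a measure of dopamine neurons alone. Cck, a neuropeptide gene, rose by 1.63 on the log2 scale (SE 0.41, edgeR adjusted p = 0.0296), from 47.7 ± 6.13 to 148 ± 54.9 CPM (SD, n = 3 each). It is abundant in forebrain neurons. Without low-dose 1, low-dose 3 or MPTP 2 in turn, 0 dopamine genes were called, and 2 without MPTP 1 and 1 without MPTP 3.

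Markers of other regions and cell types changed in the low-dose comparison too. Of the marker lists, 6 of 12 cortical and hippocampal, 4 of 10 striatal and 4 of 8 choroid plexus genes rose, and 6 of 7 endothelial genes and 3 of 7 astrocyte genes fell. Ttr, the choroid plexus transport protein gene, had 846, 1329.8 and 1269 CPM in low-dose 1 to 3 and 1.20, 7.64 and 1.92 CPM after MPTP alone (edgeR adjusted p = 0.00706). The part of these cells and regions in the values of Ret, Aldh1a1 and Cck was not tested.

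These counts changed with the libraries in the fit. The 429 genes called after the high dose became 138, 18 and 21 without MPTP 1, 2 and 3, and 43, 22 and 92 without high-dose 1, 2 and 3. The 1861 called after the low dose became 884, 421 and 426 without MPTP 1, 2 and 3, and 1074 and 627 without low-dose 1 and 3. With control 2 and levodopa 2 left out of the shared fit, 2477 and 5288 genes were called, with 1 and 15 of the dopamine lists. Shares of the genes tested in that fit are not given here, so no excess of dopamine genes is read from these counts.

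Slc6a3 and Th themselves did not pass against MPTP alone. For Slc6a3 the log2 fold change was -2.37 (SE 2.1, edgeR adjusted p = 0.523) after the low and -1.35 (SE 2.03, edgeR adjusted p = 0.788) after the high dose. For Th it was -1.98 (SE 0.97, edgeR adjusted p = 0.219) and -1.30 (SE 0.95, edgeR adjusted p = 0.514). The standard errors of Slc6a3 are near 2 on the log2 scale, and each inhibitor group held rich and poor libraries. Nr4a2 changed by -0.02 (SE 0.56, edgeR adjusted p = 0.989) and -0.09 (SE 0.56, edgeR adjusted p = 0.954).

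The 9 libraries without inhibitor, which the split did not use, showed which genes go with Slc6a3 elsewhere. A slope of each gene on the log2 CPM of Slc6a3, with the group as a term, was fitted with edgeR over 21058 genes, where a slope of 1 means that a gene changed in proportion to Slc6a3. In the dopamine lists 20 of 32 genes rose and 4 fell, against 18.7% rising and 20.8% falling over all genes. Th had a slope of 0.25 (SE 0.073, edgeR adjusted p = 0.0275), Slc18a2 of 0.61 (SE 0.053, edgeR adjusted p = 0.00047) and Ddc of 0.35 (SE 0.031, edgeR adjusted p = 0.000471). Of the 26 genes that, beside Slc6a3, were higher in the rich inhibitor libraries, 14 rose and 1, En2, fell. En2 had 107 and 103 CPM in control 2 and levodopa 2 and at most 11.4 CPM in the other 7 libraries without inhibitor. All 7 cerebellar markers fell with Slc6a3. With the replicate number as a block, 387 genes were called in place of 8323, with 10 dopamine genes and 5 of the 26 rising.

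These calls rested on the 2 libraries with cerebellar markers. The 8323 calls became 2855 without control 2 and 3557 without levodopa 2. Without both, 0 of 21483 genes were called in the remaining 7 and 1248 had an unadjusted p under 0.05, 461 rising (2.15%) and 787 falling (3.66%). At that unadjusted level 15 of the 32 dopamine genes rose and 1, Drd2, fell, and 9 of the 26 genes higher in the rich libraries rose. Th had the smallest p of all 21483 genes (slope 0.67, SE 0.050, edgeR adjusted p = 0.21) and Ret the third smallest (slope 0.39, SE 0.038, edgeR adjusted p = 0.261). Slc18a2 and Ddc had slopes of 0.69 (SE 0.13) and 0.51 (SE 0.093). In the same fit 9 of 10 striatal markers fell and 6 of 8 choroid plexus markers rose at an unadjusted p under 0.05, so the libraries also differed in other regions along Slc6a3, and the part of those regions was not tested.

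Among these 7 libraries control 1 alone was low in Slc6a3, at 5.11 CPM against 54.5 to 121 CPM. With control 1 left out too, which was done after its value was seen, 0 of 22421 genes were called by edgeR and 221 rose and 181 fell at an unadjusted p under 0.05. Of the dopamine genes, 5 of 32 then rose at that level: Th (slope 0.78, SE 0.16), Ret (0.55, SE 0.11), Gucy2c (0.89, SE 0.23), Foxa1 (0.86, SE 0.27) and Nr4a2 (1.56, SE 0.50). Vip fell, and 0 striatal and 0 choroid plexus markers moved either way at that level. The 18 genes higher in the rich libraries but outside the dopamine lists had slopes in that fit from -13.4 (Mfrp, SE 1.17) to 0.80 (C130021I20Rik, SE 0.33). Mfrp had 56 reads in MPTP 3 and 0 in MPTP 1, MPTP 2, levodopa 1 and levodopa 3. Within the MPTP group (MPTP 1 to 3), Th had 52.6, 67.7 and 36.1 CPM and Ret 81.4, 102 and 66.3 CPM, in the order of Slc6a3. The same order was seen in Nr4a2, Ddc, Pitx3, Foxa1, Foxa2, Lmx1a, Lmx1b, Gucy2c, Kcnj6 and Cck. Other dopamine genes had other orders there, with Slc18a2 at 51.6, 74.4 and 60.2 CPM and En1 at 3.53, 7.18 and 12.8 CPM. Nr4a2, which followed the order of Slc6a3 there, had 18.3, 30.9 and 8.96 CPM. Its range was wider than in the 6 inhibitor libraries, where it lay between 14.0 and 23.5 CPM. Its slope was -0.06 (SE 0.076, edgeR adjusted p = 0.575) over all 9 libraries.

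**Figure D5:**
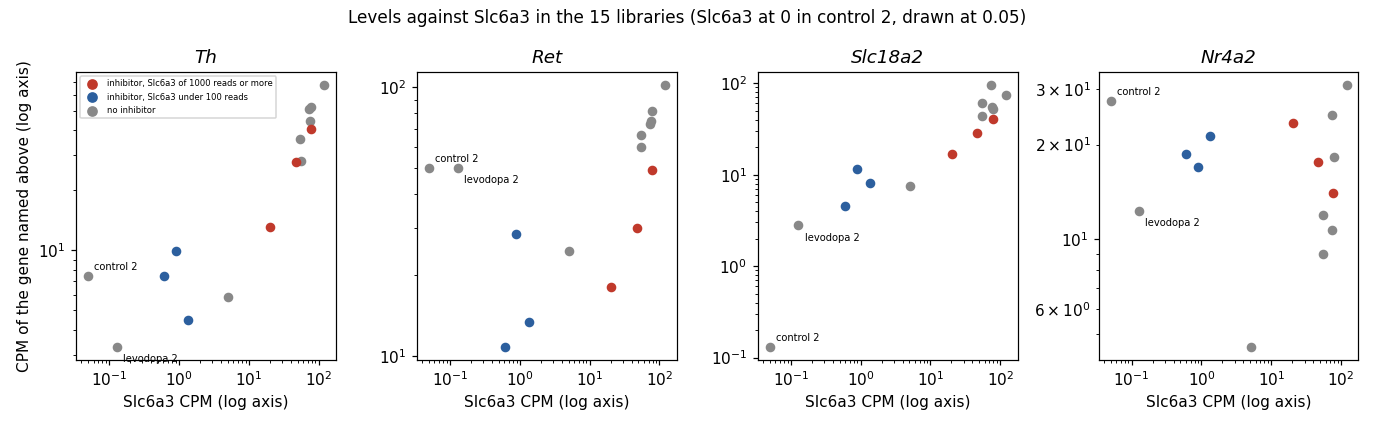
CPM of Th, Ret, Slc18a2 and Nr4a2 against CPM of Slc6a3 (both log axes) in the 15 libraries, coloured as in the plot of CPM by group, with control 2 and levodopa 2 named. Th lies between 3.28 CPM in levodopa 2 and 67.7 CPM in MPTP 2, Ret is at 50.0 and 50.1 CPM in control 2 and levodopa 2, and the points of Nr4a2 are scattered.

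The 10 named genes with the smallest p rising with Slc6a3 over the 9 libraries held no gene of the dopamine lists. They were Zdhhc22, Adra1b, F2r, Heph, Mmp15, Slc6a7, Rbms3, Cdk14, Elavl2 and Arhgdig, with slopes from 0.13 (Mmp15) to 0.30 (Zdhhc22). Among the 10 falling ones was Itpr1, the calcium release channel abundant in Purkinje cells, with a slope of -0.42. In the 7 libraries F2r, a thrombin receptor gene, had the smallest unadjusted p of the 10 rising genes (slope 0.23), and 0 of them were called.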

How the data were processed

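Messenger RNA libraries (TruSeq Stranded mRNA, per the labels' protocols) of mouse brain gave 1 table per library. The authors deposited whole-number read counts per gene symbol. The tools named in the submitters' processing notes are HISAT2 2.1.0, StringTie 2.1.3b, Trimmomatic and bcl2fastq 2.20.0, and the build is GRCm38/mm10. How genes were annotated, how strand was set and how reads of several genes were handled is not given in the sources used, so overlapping genes and near-identical copies are uncertain.

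Genes were tested on the counts with edgeR 4.0.16 (R 4.3.3), after filterByExpr by group and TMM normalization, by quasi-likelihood fits and Benjamini-Hochberg adjustment over all genes tested at 0.05. The 3 group comparisons shared 1 fit of 15 libraries. The slope on Slc6a3 used log2 CPM with a prior count of 2 and the group as a term. Standard errors are the coefficient divided by the square root of F. Rich and poor libraries were compared by levels alone, for genes with a mean of at least 1 CPM over the 6. DESeq2 1.42.0, RLE scaling, other filters, a replicate block and left-out libraries were alternatives. The fits were run on simulated counts drawn with the same dispersion of 0.05 for every gene. The spread of the real libraries was not simulated, so that check does not cover it.

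Named genes were all 33 genes of the dopamine lists, up to 3 of each other list by level, the 15 and 10 largest ratios in favour of rich and poor libraries, and the 10 smallest p of called genes with a rising and a falling slope; others are named where text on a list or count needed them. A few genes that these rules name are left out of the text. The members and lists were chosen with earlier results of these data known. Positions are those of RefSeq for GRCm38.p6, which held 223 of 226 genes looked up.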

Additional observations from a re-analysis of the deposited data

How the results depend on the processing

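The description of rich and poor libraries and the labelled comparisons have 3 libraries to a side, and genes such as Pitx3 and Foxa2 rest on 8 or fewer reads in the poor libraries. RLE scaling moved no count of genes by more than 1.5 times and turned no direction. A minimum mean of 5 CPM left 7 genes higher in the rich and 5 in the poor libraries (4 in the dopamine lists), and a ratio of 1.5 gave 74 and 141. With 1 library left out, these counts ran from 31 to 105, from 19 to 120 and from 4 to 15 in the dopamine lists.

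High against low dose called 0 genes under edgeR with each library left out and 1 with DESeq2. With 1 library left out, its log2 fold change ran from -0.64 to 5.10 for Slc6a3 and from -0.21 to 1.85 for Th, both lowest without high-dose 3 and highest without low-dose 2, and that of Nr4a2 turned to 0.078 without high-dose 3. High dose against MPTP called 214 genes with no filter, 226 with the replicate block, 3560 (7 of the dopamine lists) in a fit of only the compared groups, 2477 (1) without both libraries of high cerebellar markers and 1742 (1) with DESeq2, and 18 to 138 (0) with 1 library left out. Low dose against MPTP called 1224 with no filter, 4253 (19) with only the compared groups, 5288 (15) without both libraries of high cerebellar markers and 3412 with DESeq2, and 421 to 1300 (0 to 4) with 1 library left out. Nr4a2, whose change was near 0, turned to 0.085 with the replicate block, 0.49 without MPTP 2, 0.016 without low-dose 1 and 0.045 without low-dose 2 in the low-dose comparison, and to 0.41 without MPTP 2 and 0.071 without high-dose 3 in the high-dose one, with lowest values of -0.35 and -0.43 without MPTP 3. Apart from fewer genes or samples in a fit, the cause was not tested. Numbers in brackets after counts of calls are dopamine list genes. Shares of the genes tested in each of these fits are not given, so no excess of dopamine genes is read from them.

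For the slope on Slc6a3, 1 library left out gave 2855 to 8804 calls, 16 to 21 rising dopamine genes and 10 to 15 rising genes of those higher in the rich libraries. The replicate block gave 387, 10 and 5, and leaving out both libraries of high cerebellar markers, or control 1 as well, gave 0, 0 and 0. The slope of Nr4a2 turned to 0.048 with the replicate block, 0.52 without both cerebellar libraries, 1.56 without control 1 as well and 0.10 without control 2, and was lowest, at -0.12, without levodopa 2. Drd2 turned to -0.50 and -0.25 without both and without control 1 as well, Gch1 and En1 to -0.14 and -0.69 without all 3, and Ret to -0.0037 without control 3, against 0.094 at most, without control 2.

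The labels do not say what a replicate number stands for, and not every pair of equal number correlated above 0.1. Their deviations from the group means correlated at -0.074 to 0.060 between doses, at 0.018 to 0.10 and -0.045 to 0.033 for the high and low dose with MPTP, and at -0.30 to 0.80 among the groups without inhibitor. There the control and levodopa pairs were all above 0.1, at 0.29, 0.80 and 0.37, but unequal numbers reached 0.60 and the pairs with MPTP went down to -0.30.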

Other observations

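The Slc6a3-poor libraries were not alike in other regions. High-dose 1 had the highest level among the 6 inhibitor libraries of the lateral hypothalamic peptide genes Hcrt, which encodes orexin, at 47.5 CPM, and Pmch, which encodes melanin-concentrating hormone, at 292 CPM. Low-dose 1 and 3 had 0.0337 and 1.38 CPM of Hcrt, while the rich libraries had 21.2 to 28.8 CPM. Pomc, a peptide gene of the arcuate nucleus and the pituitary, had 95.8 CPM in low-dose 1 and at most 11.3 CPM in the 9 libraries without inhibitor. The striatal receptor gene Drd1 was 16.5 CPM in high-dose 1 and 60.9 and 56.5 CPM in low-dose 1 and 3. High-dose 1 was also the highest of the 6 for the thalamic gene Prkcd, at 265 CPM against 53.2 to 154 CPM. These genes were chosen after their values were seen.

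Pisd-ps1, at 43.6 to 89.3 CPM in the 6 inhibitor libraries whatever their Slc6a3 level, had 236 to 304 CPM in the other 9 libraries.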
